A study of Mus musculus with 6 samples.

Results

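The endothelial and angiogenic receptor genes were 38 genes that encode receptors, ligands, junction and surface proteins, sinusoidal proteins and transcription factors of blood vessel cells. Their transcripts were read in the livers of 3 Rb null and 3 wild type mouse embryos of embryonic day 12.5, whose parents were 129sv mice heterozygous for Rb. The wild type embryos carried no Rb mutation per the labels, no embryo was treated, and each liver was disaggregated in saline and read on its own Affymetrix array from 6 ug of total RNA. The labels name no deletion limited to one tissue, and the Rb null embryos are taken here to lack the gene in other tissues as well. Members were found by the platform's gene symbols, and every probe set (the group of oligonucleotides that reads one transcript) with exactly 1 symbol was used. Of the 38 genes, 30 had such a probe set, out of 8251 genes with one on the array, and they had 43 probe sets in all, out of 12422 that were no array controls. Ephb4, Robo4, Dll4, Egfl7, Esam, Plvap, Adgrl4 and Stab2 had none and were not analysed here.

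Endothelial cells line the vessels and are directed by receptors on their surface. Vascular endothelial growth factor (VEGF) acts through Kdr with the co-receptor Nrp1 and drives vessel growth, angiopoietins act through Tek, and the Notch and ephrin pairs set arterial and venous fates. Junction proteins such as the cadherin Cdh5 hold the cells together, and Sox7, Sox17 and Sox18 are transcription factors of the endothelium. In the fetal liver the vessels are sinusoids, whose lining cells carry the scavenger receptors Stab1 and Stab2 and the hyaluronan receptor Lyve1, and blood cells form around them.

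Levels below are MAS5 signals on the linear scale, given per embryo or as mean ± SD with n = 3 embryos per genotype. Log2 fold changes subtract wild type from Rb null values of log2(signal + 50.0) and are given ± SE, and folds on that scale understate the change of dim genes. Signals of different probe sets are not comparable as levels, so each gene is compared with itself between genotypes. Probe sets with a mean signal above 150.1 over the 6 arrays were tested with limma, p-values were adjusted by Benjamini-Hochberg over all 6793 tested probe sets, and a change was called below an adjusted p of 0.05. Each gene stood for its brightest probe set. The Rb1 signal was 139, 142 and 127 in the Rb null livers, against 791, 754 and 706 in the wild type livers. The labels and this transcript therefore matched in all 6 embryos, although the sources used here do not say where its probes lie relative to the deleted part. Median signals were 199 ± 2.97 on Rb null and 181 ± 5.22 on wild type arrays (two-sided exact permutation p = 0.1, which is the minimum for groups of 3), while the trimmed means were equal. Setting the medians equal moved the median log2 fold change of all tested genes to -0.11, against 0.02 as deposited, and changed the split of calls to 363 higher and 1099 lower, against 690 higher and 501 lower. The number of arrays limits the precision.

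Receptor, ephrin, junction and SoxF genes of the endothelium included members that rose in Rb null livers, and no member fell. In bulk tissue, more cells of a type and more RNA per cell cannot be told apart. Of the 22 members above the filter, 9 rose, 13 did not pass and 0 fell, with 0 lower also at an unadjusted p below 0.05 in limma. Across all 5273 tested genes, 13.1% were called higher and 9.5% lower. The genes that rose were Notch1, Kdr, Sox18, Efnb2, Emcn, Nrp1, Sox17, Ramp2 and Cdh5, with log2 fold changes from 0.31 to 0.68. All 22 tested members had a log2 fold change above 0, as did 53.8% of all tested genes, and the median was 0.32 against 0.02. For 15 of the 22 every Rb null embryo lay above every wild type embryo, which held for 23.5% of all tested genes. A dim gene could pass the filter through the genotype in which it was high, and the wild type means of Emcn and Sox7, and of a second Flt1 probe set, lay below it. With no filter, 7 of the 30 members on the array rose and 0 fell (limma, 0 also at an unadjusted p below 0.05), where 6.73% of all genes were called higher and 4.22% lower. Of those 30, 27 had a positive log2 fold change, as did 56.1% of all genes, and their median was 0.28 against 0.031. Counted by probe set, 12 of the 27 tested rose, that Flt1 set and Emcn among them, and 0 fell, where 13% of all tested single-symbol probe sets were called higher and 8.82% lower. Over all 43 probe sets with or without the filter, the Rb null embryos lay above all wild type embryos on 22 and below them on 0, where 18.8% and 11.2% of all single-symbol probe sets did so. After equal-median scaling Kdr, Nrp1, Efnb2, Sox18 and Emcn still rose, 5 of 22 where 6.88% of all genes were called higher. The mean deviation of the 22 genes from their wild type mean was similar among the Rb null embryos, at 0.35, 0.35 and 0.36 on the log2 scale in Rb null embryos 1 to 3, against 0.040, -0.029 and -0.010 in wild type embryos 1 to 3.

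**Figure D1:**
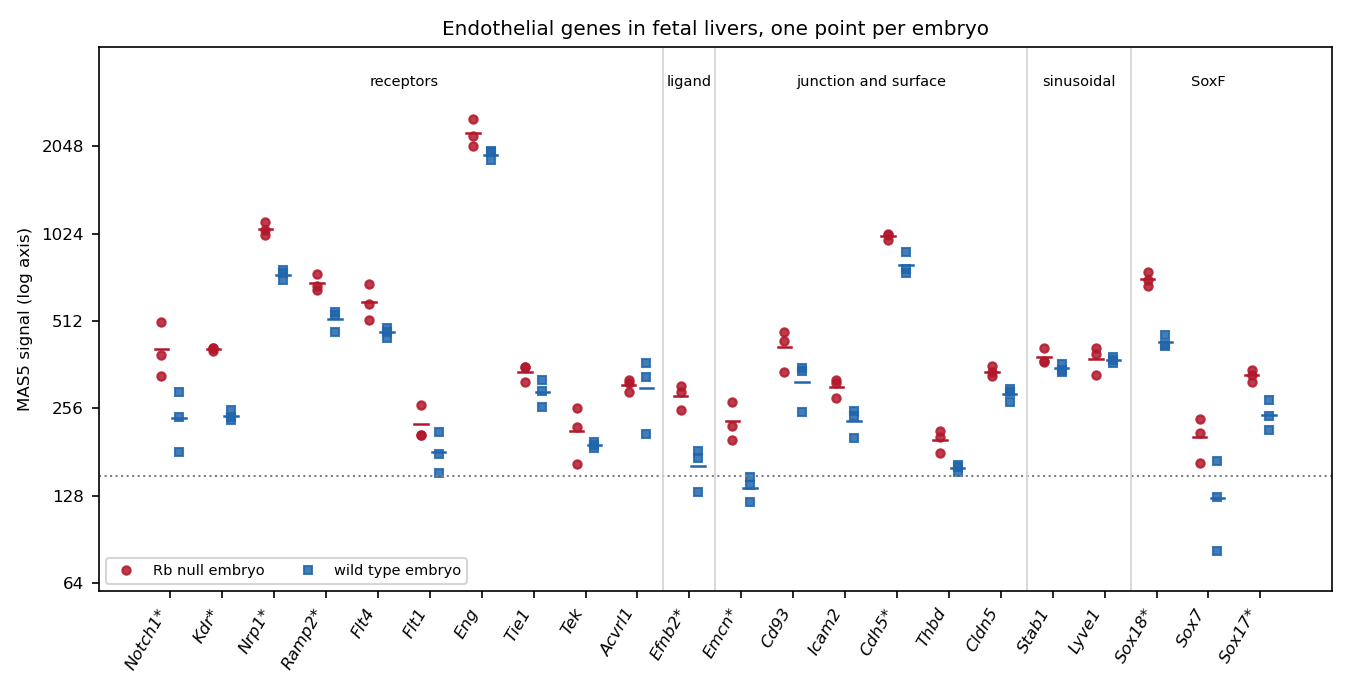
MAS5 signal (log axis) of the 22 tested endothelial genes by role, with one point per embryo and a bar at each mean, Rb null in red on the left and wild type in blue on the right of each gene. An asterisk marks the 9 genes past an adjusted p of 0.05, the dotted line is the filter at 150.1, and the Rb null points of Kdr, Nrp1, Efnb2, Emcn and Sox18 all sit above the wild type points while those of Lyve1 overlap.

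Among the VEGF receptors the rise was clearest for Kdr, the receptor through which VEGF drives endothelial growth. Its signal was 413, 414 and 402 in the Rb null livers, against 252, 239.5 and 234 in the wild type livers. The genotypes did not overlap and the embryos of each lay within a narrow range (log2 fold change 0.66 ± 0.082, adjusted p = 0.0015, 1.58-fold). Nrp1, the co-receptor that binds VEGF and semaphorins and that mesenchyme and neurons also make, was read by a pair of probe sets. The brighter gave 1050.2, 1124 and 1009 in the Rb null livers, against 765, 707 and 748 in the wild type livers (log2 fold change 0.49 ± 0.068, adjusted p = 0.0022). The dimmer gave 684, 673 and 489 in the Rb null livers, against 404, 319.5 and 295 in the wild type livers (log2 fold change 0.77 ± 0.15, adjusted p = 0.0091). Both rose with no overlap, and their changes differed by 0.28 (two-sided exact permutation p = 0.2). That test cannot give a p below 0.1 for groups of 3, so no difference could have passed. Flt4, the receptor of VEGF-C on sinusoids and lymphatic vessels, read 595 ± 84.8 in the Rb null group and 468 ± 19.0 in the wild type group and did not pass (log2 fold change 0.31 ± 0.10, adjusted p = 0.066), although all 3 Rb null embryos lay above all 3 wild type embryos. Flt4 passed when Rb null embryo 3 was left out (0.40, adjusted p = 0.031). In the other 16 of 17 processing alternatives it did not pass. Its change was 0.18 at equal medians (adjusted p = 0.23) and 0.18 on averaging its probe sets (adjusted p = 0.28). Its other probe set was below the filter, at 127 ± 24.9 in the Rb null group and 122 ± 32.9 in the wild type group.

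Flt1, which encodes a high-affinity VEGF receptor that is also made as a secreted form, gave different answers on its probe sets. The dimmer of its probe sets read 344, 334 and 262 in the Rb null livers, against 74.1, 43.0 and 32.7 in the wild type livers. The genotypes did not overlap (log2 fold change 1.87 ± 0.18, adjusted p = 4.3e-04). Its wild type signals lay below the filter and it was tested through its Rb null signals, so the size of the rise is uncertain, since the deposited values do not tell signal from background. The brighter probe set, which stood for the gene, read 263, 207 and 208 in the Rb null livers, against 212, 153 and 178 in the wild type livers, with overlapping genotypes (log2 fold change 0.26 ± 0.14, adjusted p = 0.22). The change on the dimmer set exceeded that on the brighter by 1.62 on the log2 scale (two-sided exact permutation p = 0.1, again the minimum). The sources used here do not say which Flt1 transcripts either probe set reads. Averaging its probe sets put the gene past the threshold (1.07, adjusted p = 0.0019), and so did leaving out embryo 1 or embryo 3 of the wild type group (2.04 and 1.75, adjusted p = 0.0011 and 0.0019), because the dimmer set then became the brighter one.

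Of the other receptors, Notch1 and Ramp2 rose. Notch1, a receptor of arterial endothelium that blood progenitors also use, read 329.5, 391 and 508 in the Rb null livers, against 291, 181 and 239 in the wild type livers. The Rb null values were spread but lay above every wild type value (log2 fold change 0.68 ± 0.18, adjusted p = 0.030). The call did not survive leaving out Rb null embryo 2 or 3 or wild type embryo 2 or 3 (adjusted p from 0.070 to 0.078), nor any of the 3 other scalings (adjusted p from 0.051 to 0.067). It was also lost with no filter. The other Notch1 probe set, below the filter, read 43.1 ± 29.0 in the Rb null group and 10.3 ± 0.82 in the wild type group. Ramp2, the partner protein of the adrenomedullin receptor in endothelium, read 675, 655 and 741 in the Rb null livers, against 537, 551 and 468 in the wild type livers (log2 fold change 0.38 ± 0.086, adjusted p = 0.017). Its genotypes did not overlap, and the call was lost without wild type embryo 3 (adjusted p = 0.053) and after equal-median scaling (0.25, adjusted p = 0.055).

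The angiopoietin receptor Tek and its partner Tie1 did not pass. Tek read 256, 220.4 and 165 in the Rb null livers, against 192, 186 and 195 in the wild type livers, with the wild type range inside the Rb null range (log2 fold change 0.11 ± 0.14, adjusted p = 0.61, 95% interval -0.21 to 0.44). Tie1 read 342 ± 23.3 in the Rb null group and 291 ± 31.2 in the wild type group on its brighter probe set (log2 fold change 0.20 ± 0.10, adjusted p = 0.19) and 214 ± 15.8 in the Rb null group and 172 ± 48.6 in the wild type group on the other (log2 fold change 0.27 ± 0.17, adjusted p = 0.28). Both Tie1 probe sets overlapped between genotypes. Eng, a co-receptor for TGF-beta and BMP ligands that early erythroid cells also make, read 2272 ± 245 in the Rb null group and 1917 ± 69.0 in the wild type group. All Rb null embryos lay above all wild type embryos, but the change was small (log2 fold change 0.23 ± 0.079, adjusted p = 0.069). It was past the threshold after quantile (0.29, adjusted p = 0.035) and cyclic loess normalization (0.29, adjusted p = 0.033) and when embryo 2 of the Rb null group was left out (adjusted p = 0.045). In the other 14 of 17 processing alternatives Eng did not pass, and at equal medians its change was 0.099 (adjusted p = 0.43). Its signalling partner Acvrl1, a type I receptor, read 308 ± 15.0 in the Rb null group and 301 ± 82.4 in the wild type group (log2 fold change 0.059 ± 0.17, adjusted p = 0.84). The wild type embryos differed widely among themselves on its tested probe sets. Ednrb, Notch4 and Ptprb, an endothelin receptor, a Notch receptor of endothelium and a phosphatase of endothelium, stayed below the filter. The Notch4 probe sets leaned opposite ways, at 67.9 ± 21.4 in the Rb null group and 105 ± 19.1 in the wild type group on one and 97.6 ± 17.9 in the Rb null group and 70.3 ± 23.0 in the wild type group on the other, with overlap on each.

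**Figure D2:**
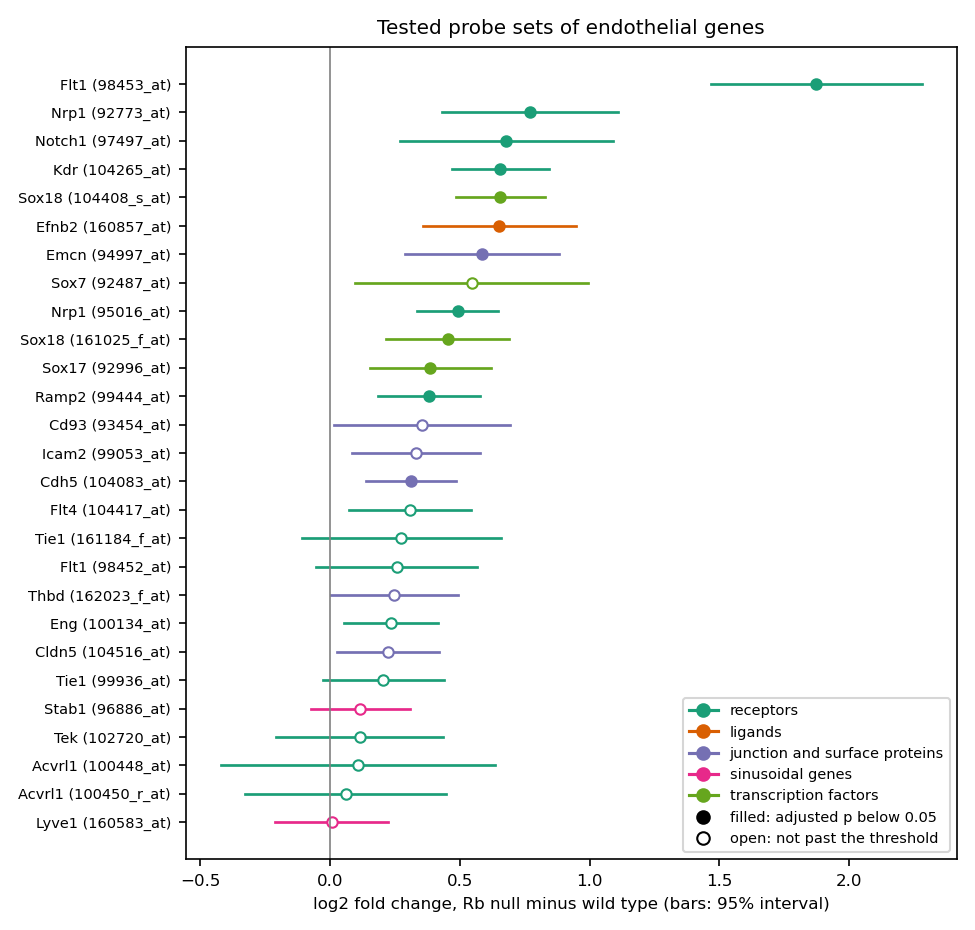
Log2 fold change (x axis, Rb null minus wild type, with 95% intervals from limma) of the 27 tested probe sets of endothelial genes, coloured by role, filled where the adjusted p was below 0.05. The 12 filled points lie from 0.31 for Cdh5 to 1.87 for the dimmer Flt1 probe set, whose wild type signals lay below the filter, and the open point of Lyve1 lies at 0.0054.

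Of the ligands, only Efnb2 was above the filter. Efnb2, the ephrin ligand that marks arterial endothelium, read 290.3, 252 and 307 in the Rb null livers, against 173, 132 and 182 in the wild type livers. The lowest Rb null value exceeded the highest wild type value by a wide margin (log2 fold change 0.65 ± 0.13, adjusted p = 0.010, 1.57-fold). Angpt1, which activates Tek and is made mainly by mesenchyme and blood cells, and Angpt2, its context-dependent antagonist from endothelium, were dim. Angpt1 read 61.9 ± 14.8 in the Rb null group and 44.4 ± 40.6 in the wild type group. Angpt2 read 63.6 ± 5.31 in the Rb null group and 49.1 ± 4.83 in the wild type group. Neither was shown to be above background.

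Among junction and surface genes, Cdh5 and Emcn rose. Cdh5, the cadherin of endothelial junctions and a defining marker of the lineage, read 1020.2, 973 and 1014 in the Rb null livers, against 772, 881 and 747 in the wild type livers. The genotypes did not overlap (log2 fold change 0.31 ± 0.075, adjusted p = 0.022, 1.24-fold), but the call did not hold without any single embryo except wild type embryo 2 (adjusted p from 0.052 to 0.074) or after equal-median scaling (0.18, adjusted p = 0.10). Emcn, a sialomucin of venous and sinusoidal endothelium, read 199.5, 222 and 270.0 in the Rb null livers, against 139, 121 and 148 in the wild type livers (log2 fold change 0.59 ± 0.13, adjusted p = 0.016). All its wild type values were below 150.1 and not shown to be above background, and the call was lost after cyclic loess normalization (0.47, adjusted p = 0.0502). Another Emcn probe set below the filter ran the same way, at 176 ± 18.0 in the Rb null group and 93.7 ± 52.9 in the wild type group, and the last one overlapped at 63.1 ± 14.0 in the Rb null group and 50.8 ± 15.0 in the wild type group.

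The remaining surface genes had positive changes that did not pass. The adhesion receptor Icam2 read 303 ± 22.3 in the Rb null group and 231 ± 25.8 in the wild type group (log2 fold change 0.33 ± 0.11, adjusted p = 0.060), and it was past the threshold with no intensity trend (adjusted p = 0.046). In the other 15 of 16 processing alternatives Icam2 did not pass (adjusted p up to 0.20). The tight junction gene Cldn5 read 343 ± 13.5 in the Rb null group and 286 ± 14.9 in the wild type group (log2 fold change 0.22 ± 0.086, adjusted p = 0.10). Both had every Rb null embryo above every wild type embryo. Thbd, which encodes the anticoagulant receptor thrombomodulin, read 199.5 ± 17.9 in the Rb null group and 159.9 ± 4.41 in the wild type group on a probe set with the same separation (log2 fold change 0.25 ± 0.11, adjusted p = 0.14). That probe set carries a suffix used where probes may bind several transcripts. The other Thbd probe set, below the filter, also did not overlap, at 58.9 ± 8.69 in the Rb null group and 31.4 ± 4.46 in the wild type group. Cd93, a C-type lectin of endothelium and early blood cells, read 415 ± 66.2 in the Rb null group and 315 ± 56.5 in the wild type group with overlap (log2 fold change 0.35 ± 0.15, adjusted p = 0.13). Pecam1, a defining marker of endothelium, read between 16.8 and 29.8 in Rb null and between 18.2 and 64.6 in wild type livers, below the filter on every array, while Cdh5, Kdr, Tek, Tie1 and Lyve1 lay above it on every array. Procr, the protein C receptor, and Nos3, the nitric oxide synthase of endothelium, were below the filter as well, at 66.1 ± 6.54 in the Rb null group and 62.3 ± 6.79 in the wild type group for Procr and at 37.4 ± 12.8 in the Rb null group and 25.7 ± 8.79 in the wild type group for Nos3.

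Of the members listed as sinusoidal genes, Lyve1 and Stab1 were tested and neither passed. Emcn, which rose, and Flt4, which did not pass, are also placed on sinusoids above but were listed under other roles. Lyve1, the hyaluronan receptor of sinusoids and lymphatic vessels that fetal macrophages also make, read 333, 412 and 393 in the Rb null livers, against 385, 376 and 368 in the wild type livers. The wild type values lay inside the Rb null range (log2 fold change 0.0054 ± 0.094, adjusted p = 0.98, 95% interval -0.21 to 0.22), and the sign turned after equal-median (-0.12), quantile (-0.087) and cyclic loess normalization (-0.083). Stab1, the scavenger receptor of sinusoids and macrophages, read 373, 413 and 370.1 in the Rb null livers, against 348, 342 and 365 in the wild type livers (log2 fold change 0.12 ± 0.083, adjusted p = 0.36, 95% interval -0.075 to 0.31). Its values in the Rb null livers were all above those in the wild type livers but close to them, and after equal-median scaling the change was -0.0074. Whether other members changed by more than these was examined within each array, as the difference of the log2 values. Relative to Lyve1, 12 of the other 21 tested members were higher in all 3 Rb null embryos than in any wild type embryo, where 17.3% of all genes were. The difference from the change of Lyve1 was 0.65 for Kdr and 0.65 for Sox18. Relative to Stab1, 8 members were higher and 0 lower without overlap, where 11.5% and 28.4% of all genes were. Relative to Cdh5, itself higher, Sox18 (0.35), Kdr (0.35) and Efnb2 (0.34) were higher without overlap, where 3.85% of all genes were, and Lyve1 (-0.31) was lower without overlap, where 50.8% of all genes were. Each of these differences had a two-sided exact permutation p of 0.1, the smallest possible, and an adjusted p of 0.26 over the 63 pairs compared. With 3 embryos per genotype no difference could pass whatever its size, so this test decides nothing about them.

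Of the SoxF transcription factors, which act together in vessel formation, Sox18 and Sox17 rose in Rb null livers. Sox18 read 710.0, 675 and 752 in the Rb null livers, against 419.9, 457 and 424 in the wild type livers on its brighter probe set, with no overlap (log2 fold change 0.66 ± 0.075, adjusted p = 0.0010, 1.58-fold). On the dimmer it read 504, 518 and 537 in the Rb null livers, against 395, 309 and 401 in the wild type livers (log2 fold change 0.45 ± 0.10, adjusted p = 0.018), which did not pass when embryo 2 of the Rb null group was left out (adjusted p = 0.057) or after equal-median scaling (adjusted p = 0.064). Both Sox18 probe sets carry a suffix used where probes may bind several transcripts. Sox17, a factor of arterial endothelium and endoderm, read 334, 316 and 346 in the Rb null livers, against 241, 216 and 273 in the wild type livers, without overlap (log2 fold change 0.39 ± 0.10, adjusted p = 0.030). It failed the test on leaving out each embryo but wild type embryo 3 (adjusted p from 0.064 to 0.085) and under each of the 3 other scalings (adjusted p from 0.10 to 0.11). The Sox17 call was also lost with no filter. Averaging its probe sets also ended the call (0.22, adjusted p = 0.45), and the other Sox17 probe set, below the filter, read 74.7 ± 33.6 in the Rb null group and 74.7 ± 56.0 in the wild type group. Sox7 read 235, 210.1 and 165 in the Rb null livers, against 169, 127 and 82.4 in the wild type livers. It did not pass (log2 fold change 0.55 ± 0.20, adjusted p = 0.082), with wild type embryo 1 above the lowest Rb null value, and it was past the threshold without that embryo (adjusted p = 0.043). In 14 of 16 processing alternatives Sox7 did not pass (adjusted p up to 0.22).

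**Figure D3:**
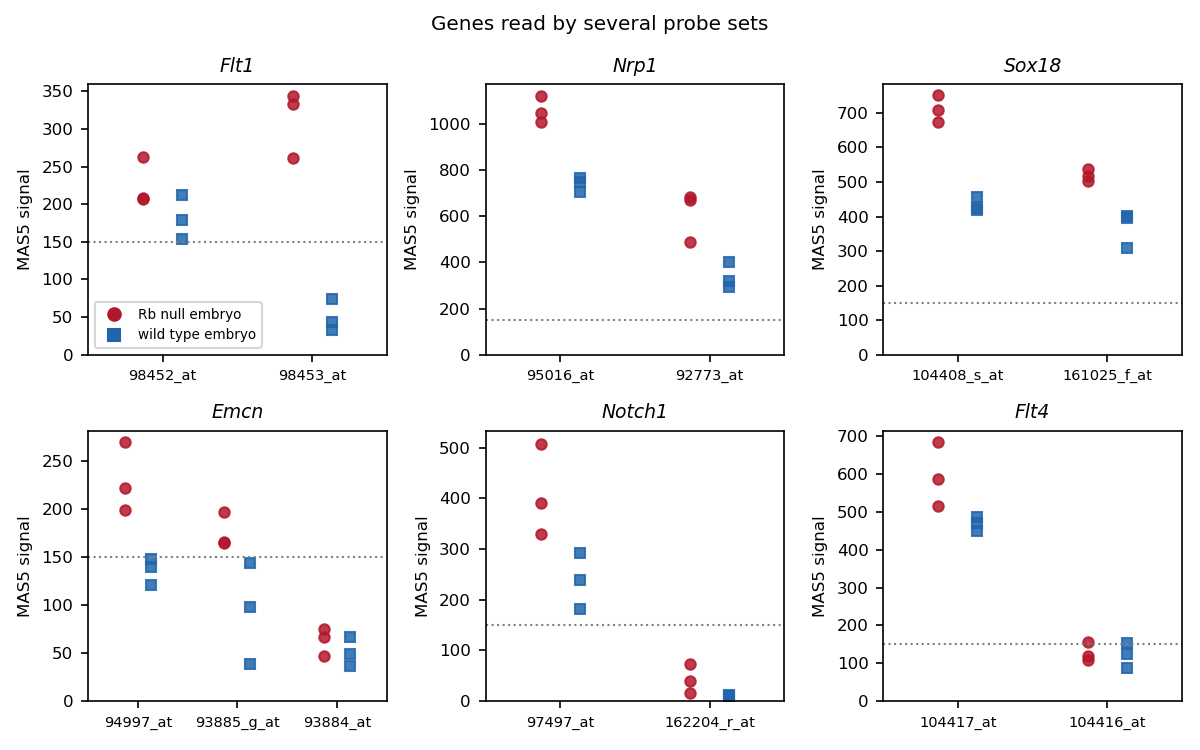
MAS5 signal (linear axis from 0) of every probe set of Flt1, Nrp1, Sox18, Emcn, Notch1 and Flt4, one point per embryo, Rb null in red on the left and wild type in blue on the right, with the filter at 150.1 dotted. The dimmer Flt1 probe set separates the genotypes widely (262 to 344 in Rb null and 32.7 to 74.1 in wild type livers) whereas the brighter one overlaps.

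Promoter windows of the members were read from RefSeq on GRCm38.p6 as the 250 bases before each transcription start, and 21 of the 38 members had one or more, 23 windows in all. An ETS motif (AGGAAG or CGGAAG on either strand), the kind of site through which many endothelial genes are known to be controlled, was present in 13 of the 23 windows and in 39.2% of all 32851 windows. Of the 23, 6 belong to starts within the annotated gene and lie wholly inside it, those of Kdr, Flt1, Nrp1 and Ednrb and 2 of Egfl7, and 3 of these hold an ETS match. The other 17 windows, 7 of which overlap the gene in part, include 10 with a match, against a share of 39.3% of the 25083 windows of all genes that were not wholly inside their gene. The SOX motif AACAAT was in 2 of the 23 and in 9.42% of all windows, and the hypoxia response core ACGTG in 1 of the 23 and in 16.6%. The E2F motif (TTTCCCGC, TTTCGCGC, TTTGCCGC or TTTGGCGC), searched because the retinoblastoma protein binds E2F factors, was in 0 of the 23 and in 1.86% of all windows. None of these motifs contains another, both strands were searched, and a match or its absence describes only the letters in the window. The windows of Notch1, Efnb2 and Emcn, which rose, are shown beside that of Tie1, which did not pass, so that the letters can be compared. They run 5′ to 3′ on the gene's strand up to the annotated gene, with ETS matches in capitals. The windows are Notch1 at chr2:26503823-26504072 on the minus strand, Efnb2 at chr8:8661243-8661492 on the minus strand, Emcn at chr3:137340828-137341061 on the plus strand, and Tie1 at chr4:118489850-118490099 on the minus strand.
Notch1: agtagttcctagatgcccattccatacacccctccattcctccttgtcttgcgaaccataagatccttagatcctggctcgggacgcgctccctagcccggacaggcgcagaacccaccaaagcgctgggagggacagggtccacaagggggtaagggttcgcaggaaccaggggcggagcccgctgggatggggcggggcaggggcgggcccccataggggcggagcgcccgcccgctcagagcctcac
Efnb2: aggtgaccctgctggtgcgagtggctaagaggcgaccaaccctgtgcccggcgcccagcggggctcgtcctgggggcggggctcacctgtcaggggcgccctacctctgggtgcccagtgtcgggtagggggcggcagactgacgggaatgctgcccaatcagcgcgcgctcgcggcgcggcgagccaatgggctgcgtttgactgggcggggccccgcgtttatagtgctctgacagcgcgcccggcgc
Emcn: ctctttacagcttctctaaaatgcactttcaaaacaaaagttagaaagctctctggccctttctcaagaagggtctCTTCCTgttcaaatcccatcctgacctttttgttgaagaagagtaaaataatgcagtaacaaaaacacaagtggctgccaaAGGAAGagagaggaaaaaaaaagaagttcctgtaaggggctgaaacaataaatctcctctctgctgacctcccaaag
Tie1: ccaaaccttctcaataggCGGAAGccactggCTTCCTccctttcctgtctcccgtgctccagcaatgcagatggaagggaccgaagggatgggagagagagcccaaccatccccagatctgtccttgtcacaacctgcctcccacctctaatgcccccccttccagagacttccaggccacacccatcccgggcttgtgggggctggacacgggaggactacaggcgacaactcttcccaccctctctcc
The Notch1 and Efnb2 windows hold 0 ETS matches, while Emcn and Tie1 hold 2 each, counted from the first base of each match to the transcription start at 174 and 93 bases in Emcn and at 232 and 219 bases in Tie1. The last 16 bases before the Emcn start lie inside the annotated gene and are not shown. Emcn also holds a SOX match.

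Genes around these receptors were followed in 5 lists, whose counts stand against 13.1% of all tested genes called higher and 9.5% lower. With the other scalings, 6.88% of all genes were called higher and 20.8% lower at equal medians, 10.5% and 8.78% after quantile, and 10.9% and 8.27% after cyclic loess normalization. In the VEGF list 2 of 10 tested genes rose and 8 did not pass, with the same count under each scaling. Vegfa, the main ligand of Kdr and Flt1, read 398 ± 49.2 in the Rb null group and 172 ± 43.1 in the wild type group (log2 fold change 1.03 ± 0.15, adjusted p = 0.0030). Wild type embryos 1 and 3 read 149.6 and 143.9 for Vegfa, below the filter. Vegfc, the ligand of Flt4, read 217 ± 6.75 in the Rb null group and 124 ± 14.8 in the wild type group (log2 fold change 0.62 ± 0.11, adjusted p = 0.0073). The wild type mean of Vegfc lay below the filter. Of 9 Notch ligands, receptors and targets, 6 did not pass and 3 rose, namely Notch3, a receptor of vessel mural cells (log2 fold change 0.54 ± 0.15, adjusted p = 0.036), Mfng, a glycosyltransferase that modifies Notch (log2 fold change 0.43 ± 0.094, adjusted p = 0.015), and Hes1, a target of Notch (log2 fold change 0.29 ± 0.087, adjusted p = 0.045). The count was 1 of 9 under each of the other scalings, where Notch3 (adjusted p from 0.064 to 0.070) and Hes1 (adjusted p from 0.13 to 0.17) did not pass. Notch3 did not pass when any one embryo but Rb null embryo 3 was left out (adjusted p from 0.068 to 0.10). Hes1 did not pass without any one but wild type embryo 2 (adjusted p from 0.080 to 0.14), nor Mfng without embryo 1 of the Rb null group (adjusted p = 0.055). Of 13 TGF-beta and BMP genes, 9 rose and 4 did not pass (median 0.39), and 5 rose at equal medians, 6 after quantile and 7 after cyclic loess normalization. The 9 included the inhibitory Smad6 (log2 fold change 0.65 ± 0.094, adjusted p = 0.0028), the BMP target Id3 (log2 fold change 0.61 ± 0.10, adjusted p = 0.0052) and the co-receptor Tgfbr3 (log2 fold change 0.61 ± 0.13, adjusted p = 0.014). Tgfbr3 did not pass without embryo 1 of the Rb null group (adjusted p = 0.056). Of 7 ephrin, semaphorin, slit and endothelin genes, Plxnd1, a semaphorin receptor of endothelium, rose (log2 fold change 0.33 ± 0.10, adjusted p = 0.044) and 6 did not pass. That count of 1 in 7 is near the share of all genes. Plxnd1 did not pass under any other scaling (adjusted p from 0.094 to 0.14) or without any one embryo but wild type embryo 2 (adjusted p from 0.086 to 0.13). Of 10 other transcription factors of endothelium, Ets1 (log2 fold change 0.76 ± 0.13, adjusted p = 0.0051) and Hhex (log2 fold change 0.41 ± 0.11, adjusted p = 0.031) rose, 3 fell and 5 did not pass. The 3 that fell, Lyl1 (log2 fold change -0.35 ± 0.054, adjusted p = 0.0035), Lmo2 (-0.25 ± 0.054) and Tal1 (-0.21 ± 0.064), also act in erythroid cells. The last 2 were named after their values were seen. Under the other scalings Hhex did not pass (adjusted p from 0.088 to 0.11). Of the 10 genes, 3 fell at equal medians, 1 after quantile and 1 after cyclic loess normalization. Hhex was lost without Rb null embryo 2 or 3 or wild type embryo 1 or 2 (adjusted p from 0.070 to 0.11), and Lyl1 without probe sets of shared-probe suffix (adjusted p = 0.085).

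Markers of other cells of the liver moved in the same livers, and their counts stand against the same shares of all genes. A summed signal is weighted towards the brightest probe sets of its list and does not describe the typical gene in it. The summed signal of 18 stellate and mesenchyme genes ran from 20476 to 21941 in the Rb null group and 15795 to 16117 in the wild type group, and 7 of 12 tested rose. They were led by Col6a1 (log2 fold change 0.83 ± 0.12, adjusted p = 0.0030) and Col3a1 (log2 fold change 0.76 ± 0.075, adjusted p = 4.9e-04). Of 9 megakaryocyte and platelet genes the sum ran from 8037 to 8226 in the Rb null group and 5895 to 6156 in the wild type group, and 4 of 6 tested rose. They were led by Gp5 (log2 fold change 1.07 ± 0.12, adjusted p = 8.7e-04) and Gp1bb (log2 fold change 1.02 ± 0.11, adjusted p = 6.5e-04). The wild type mean of Gp5 was 150.8, close to the filter. The 4 also included Vwf (log2 fold change 0.91 ± 0.072, adjusted p = 2.3e-04), which endothelium also makes. They included F2r as well (log2 fold change 0.32 ± 0.067, adjusted p = 0.013), the brightest gene of the list. F2r read 3365 ± 249 in the Rb null group and 2685 ± 111 in the wild type group, a large part of the sum. The count and the sum therefore do not separate these cells from endothelium. Pf4, Itgb3 and Selp were below the filter on every array. The erythroid sum of 10 genes ran from 51088 to 55051 in the Rb null group and 62467 to 70792 in the wild type group, and 6 of 10 fell. They were led by Ank1 (log2 fold change -0.62 ± 0.076, adjusted p = 0.0015) and Klf1 (log2 fold change -0.60 ± 0.059, adjusted p = 4.9e-04). Hbb-y and Hba-x, the brightest of the 10, did not pass (adjusted p = 0.056 and 0.21). Macrophages also make Stab1 and Lyve1, and of their marker genes 3 of 10 tested rose (1 at equal medians and 2 after either other normalization), while the sum of 14 ran from 6524 to 6959.8 in the Rb null group and 5769 to 6029 in the wild type group. Their largest rises were Lyz2 (log2 fold change 0.48 ± 0.10, adjusted p = 0.012), lost on averaging its probe sets (adjusted p = 0.089), and Vcam1 (log2 fold change 0.33 ± 0.062, adjusted p = 0.0090), lost after equal-median scaling (adjusted p = 0.067). The sum of 10 progenitor genes ran from 6026 to 6463 in the Rb null group and 4797 to 4945 in the wild type group, and 2 of 6 rose, Kit (log2 fold change 0.76 ± 0.11, adjusted p = 0.0024) and Myb (log2 fold change 0.26 ± 0.068, adjusted p = 0.031). Of the progenitor genes 1 rose at equal medians. Myb did not pass without any one embryo but Rb null embryo 1 (adjusted p from 0.051 to 0.085). It was also lost at equal medians, with no filter, with no intensity trend and on averaging its probe sets (adjusted p up to 0.33). Cd48, Meis1 and Runx1 stayed below the filter on every array. Hepatoblast genes had 1 higher, Hnf4a (log2 fold change 0.49 ± 0.11, adjusted p = 0.014), and 2 lower of 13, of which Apoa1 changed most (log2 fold change -0.31 ± 0.073, adjusted p = 0.018). At equal medians 1 hepatoblast gene was higher and 3 were lower. After quantile normalization 2 were higher and 1 was lower, and after cyclic loess normalization 3 were higher and Apoa1 did not pass (adjusted p = 0.13). Apoa1 did not pass without embryo 1 or 2 of the Rb null group or embryo 3 of the wild type group (adjusted p from 0.061 to 0.071). The hepatoblast sum ran from 40772 to 43321 in the Rb null group and 43048 to 46614 in the wild type group. Its brightest genes include the 2 called lower, Apoa1 and Alb (log2 fold change -0.20 ± 0.055, adjusted p = 0.034). Of the 13 genes, 9 had a log2 fold change above 0, and the median was 0.12. The mesothelial gene Wt1, with a wild type mean of 150.3 close to the filter, rose (log2 fold change 0.52 ± 0.10, adjusted p = 0.0090), 1 of 2 tested. The sum of 6 genes of that list ran from 962 to 1035 in the Rb null group and 729 to 811 in the wild type group. The part of these shifts in the endothelial values was not tested.

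**Figure D4:**
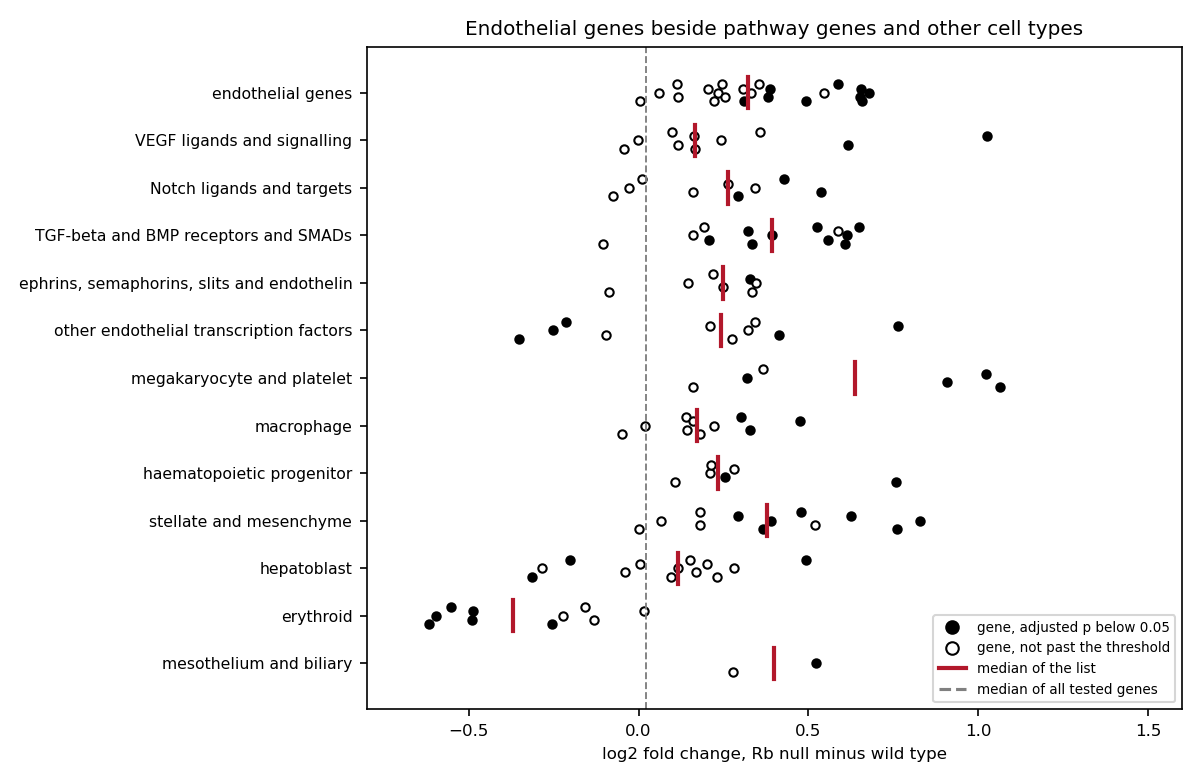
Log2 fold change (x axis, Rb null minus wild type) of each tested gene in the endothelial set, the 5 pathway lists and the 7 lists of other cell types, filled where the adjusted p was below 0.05, with the median of each list in red and that of all tested genes (0.02) dashed. The endothelial median of 0.32 lies between those of the macrophage (0.17) and mesenchyme (0.38) lists, and the erythroid median lies at -0.37.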

How the data were processed

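The only file was the submitters' value table, with 1 column per embryo. Its values are MAS5 intensity signals per probe set, computed by the authors per the labels, on a linear scale. Version and scaling target were not given in the sources used here. The equal trimmed means (2%, about 500.2) show that the arrays were scaled to a common level. No detection calls or scanner files were used. Probe sets were named by the platform annotation, of which 10833 had 1 symbol, 396 several and 1193 none, and 66 array controls were left out.

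Computed here were log2(signal + 50.0), the filter at 150.1, and a comparison of all 6 arrays with limma 3.58.1 in R 4.3.3 (intensity trend, two-sided, Benjamini-Hochberg over 6793 probe sets). Labels give separate embryos, with no litter, sex, batch or date. Members, lists and tests were chosen with earlier results of these data known. Every member was to be accounted for, those past the threshold per embryo, with up to 3 genes named per pathway list and 2 per cell type list by size of change. Vwf, F2r, Hbb-y, Hba-x and Alb were named in addition, after their values were seen. Alternatives were other scalings, offsets, filters, variance models, probe set rules, a replicate block and leaving out each embryo. Their use on named genes of other lists and on dimmer probe sets was chosen after seeing the data. The fitting script was tested on simulated arrays. Depth has no counterpart on arrays beyond signal over background.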

Additional observations from a re-analysis of the deposited data

How the results depend on the processing

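Kdr, Nrp1, Efnb2 and Sox18 kept their rise past the threshold in every alternative in which they were tested, 16 or 17 each. The count of 9 endothelial genes higher became 5 with arrays scaled to equal medians and 4 with the filter at the trimmed mean, where fewer members (6) could be tested, and 7 to 9 on leaving out single embryos. The count of lower members was 0 in every alternative. With equal medians 363 of all genes (6.88%) were higher and 1099 (20.8%) lower. With the stricter filter 428 of 3119 genes (13.7%) were higher and 533 (17.1%) lower. Without single embryos 406 to 553 of all genes (7.73% to 10.4%) were higher and 257 to 428 (4.84% to 8.12%) lower. These were 417 and 291 without Rb null embryo 1, 406 and 294 without Rb null embryo 2, and 467 and 257 without wild type embryo 3. With the replicate number as a replicate block 10 members were higher, and 639 of all genes (12.1%) were higher and 488 (9.25%) lower. Sox7 passed there, while Hes1, Plxnd1 and Hhex did not. Whether the numbers pair the embryos is not known, since the labels state no pairing. Same-numbered embryos correlated at -0.06, 0.05 and 0.27 in their deviations, and not every embryo correlated best with its own number. Deviations from a mean of 3 embryos depend on each other, so these correlations cannot decide it. Signs turned only for members that did not pass. These were Lyve1 (-0.12 with equal medians, -0.087 with quantile and -0.083 with cyclic loess normalization, -0.049 to 0.085 without single embryos), Stab1 (-0.0074 with equal medians), Acvrl1 (-0.059, -0.048 and -0.039 under these scalings, -0.15 to 0.24 without single embryos) and Tek (-4.1e-04 with quantile normalization, -0.0016 to 0.26 without single embryos). The causes were not tested. Of 354 values of members under the alternatives, 303 kept direction and side of the threshold, 27 lost the call, 10 gained one and 14 changed sign. With 3 embryos per genotype small changes were not detectable, and 16 member probe sets below the filter have no call.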
